A study of Mus musculus with 16 samples.

Results

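Mucin-type and terminal glycosyltransferases are the Golgi enzymes that start, branch, extend and cap the sugar chains of mucins, of other glycoproteins and of glycolipids. They were followed here in the epithelium of the mouse jejunum and ileum before and after weaning. The members were the genes whose symbol is Fut, St3gal, St6gal, St6galnac, St8sia, B3galt, B3gnt, B4galt, B4galnt, Galnt or Gcnt followed by a number alone. This rule gave 73 of the 24421 genes in the count tables. By step of synthesis, 16 start chains (Galnt), 5 branch them (Gcnt) and 20 extend them (5 B3galt, 8 B3gnt and 7 B4galt). Another 4 add N-acetylgalactosamine to them (B4galnt), 8 add fucose (Fut) and 20 add sialic acid (the St3gal, St6gal, St6galnac and St8sia families). The B4galnt members are called capping enzymes below, although the sugar they add need not end the chain, as for B4galnt1 in gangliosides. Of the 73 members, 51 passed the filter on low counts and were tested, and 22 did not pass it.

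The libraries came from wild-type C57BL6/J mice at postnatal day 6 (P6), when the mice were suckling, and at postnatal day 36 (P36), after weaning. Each age had 4 mice, 2 female and 2 male, and each mouse gave 1 jejunal and 1 ileal library, so that 16 libraries formed 4 groups of 4. No group carried a transgene or had a treatment. The epithelium was shaken off an opened segment in EDTA, so each library mixes all cell types of the sheet, and fewer cells of a type and less RNA per cell cannot be told apart. In the lists of 4 values below, a replicate number stands for the same mouse in both regions of an age. Levels are in CPM, which are counts scaled to one library size with a correction for library composition, and comparisons between genes use CPM per kilobase of exon (RPKM).

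Mucin-type chains begin when a polypeptide N-acetylgalactosaminyltransferase of the Galnt family puts N-acetylgalactosamine on a serine or threonine. Galactose and N-acetylglucosamine then lengthen the chain, Gcnt enzymes branch it, and fucose, sialic acid or N-acetylgalactosamine end it. The ends decide which lectins, bacteria and toxins can bind. In the rodent small intestine the surface is known for carrying mainly sialylated ends during suckling and mainly fucosylated ends after weaning. The sialyltransferases and the fucosyltransferases are therefore set side by side below.

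Upstream sequence was taken from RefSeq for GRCm38.p6. The table held 53 of the 73 members, 40 of them with a single start, and each window holds the 250 bases before that start. The window of B4galt1 lies inside the gene as it was counted, whose start is farther upstream, as does 1 other of the 40, while 38 lie outside the counted gene. Windows are printed for a pair of sialyltransferases that fell with age (St3gal3 and St3gal5), for a fucosyltransferase and a galactosyltransferase that rose (Fut4 and B4galt1), and for a pair of chain-extending enzymes that rose and hold a match to a motif (B3gnt3 and B3gnt7). Capitals mark every match, on either strand, to one of the motifs searched. The half-site of HNF4 was searched as CAAAGT, and the half-site of HNF1 as GTTAAT. The motif of the CDX factors was searched as CAATAAA. For GATA factors the letters searched were AGATAA, and for the half-site of the MAF factors they were TGCTGA.
St3gal3 (chr4:118134947-118135196, minus strand): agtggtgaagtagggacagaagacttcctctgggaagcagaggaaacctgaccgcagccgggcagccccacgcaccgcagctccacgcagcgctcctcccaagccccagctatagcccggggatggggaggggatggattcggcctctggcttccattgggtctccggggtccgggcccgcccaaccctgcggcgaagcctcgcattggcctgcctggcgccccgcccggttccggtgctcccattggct
St3gal5 (chr6:72097358-72097607, plus strand): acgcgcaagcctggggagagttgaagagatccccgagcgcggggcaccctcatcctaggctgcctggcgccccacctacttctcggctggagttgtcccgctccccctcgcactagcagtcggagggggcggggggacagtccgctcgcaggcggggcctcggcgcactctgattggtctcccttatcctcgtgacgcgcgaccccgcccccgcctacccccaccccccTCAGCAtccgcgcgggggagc
Fut4 (chr9:14752123-14752372, minus strand): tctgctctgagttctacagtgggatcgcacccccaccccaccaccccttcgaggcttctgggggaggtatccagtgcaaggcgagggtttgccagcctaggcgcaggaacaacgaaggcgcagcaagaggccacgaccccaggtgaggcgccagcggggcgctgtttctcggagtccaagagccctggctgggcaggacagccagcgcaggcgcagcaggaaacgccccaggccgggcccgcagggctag
B4galt1 (chr4:40853985-40854234, minus strand): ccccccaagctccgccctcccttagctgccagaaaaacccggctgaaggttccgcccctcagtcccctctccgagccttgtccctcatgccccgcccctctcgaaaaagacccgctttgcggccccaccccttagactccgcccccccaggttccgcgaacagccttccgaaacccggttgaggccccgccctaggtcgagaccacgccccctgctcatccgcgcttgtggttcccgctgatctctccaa
B3gnt3 (chr8:71701801-71702050, minus strand): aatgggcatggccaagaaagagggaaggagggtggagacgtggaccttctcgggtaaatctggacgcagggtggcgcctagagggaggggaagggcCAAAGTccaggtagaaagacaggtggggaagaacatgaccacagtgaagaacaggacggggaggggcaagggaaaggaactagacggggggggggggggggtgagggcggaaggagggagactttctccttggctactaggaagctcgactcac
B3gnt7 (chr1:86302971-86303220, plus strand): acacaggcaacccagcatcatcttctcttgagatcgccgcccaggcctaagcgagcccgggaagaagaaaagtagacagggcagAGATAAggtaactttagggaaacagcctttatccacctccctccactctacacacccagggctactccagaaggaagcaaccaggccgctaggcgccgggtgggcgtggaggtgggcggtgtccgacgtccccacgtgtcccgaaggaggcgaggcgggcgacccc

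St3gal5 held TGCTGA on the reverse strand from position -21, counted back from the start. B3gnt3 held CAAAGT at -154 and B3gnt7 held AGATAA at -166, while the windows of St3gal3, Fut4 and B4galt1 held none of the motifs. Among the 40 windows of members, TGCTGA occurred in 6, CAAAGT in 2, AGATAA in 1, while GTTAAT occurred in none and neither did the CDX motif. Among all 32851 windows of the table these motifs occurred in 16.1%, 12.6%, 9.99%, 6.43% and 4.2%, in that order. The printed windows were rich in G and C, from 60.0% in B3gnt3 to 71.6% in St3gal5, where the median of all windows was 52.4%.

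Library totals ran from 12159237 to 25947276 counts. The epithelial markers Epcam, Vil1, Cdh1, Krt8 and Krt20 were present in every library, with a summed level of 3661 to 5717 CPM at P6 and of 10360 to 15670 CPM at P36. The 8 goblet cell markers found in the files summed to 1709 to 4119 CPM at P6 and to 11090 to 22900 CPM at P36. The 4 Paneth cell markers summed to 17.1 to 797 CPM at P6 and to 4080 to 14180 CPM at P36. Most of the P6 spread was in Itln1, at 434.9 to 782.5 CPM in replicates 1 and 3 and 4.36 to 10.3 CPM in replicates 2 and 4. The Paneth marker Lyz1 was at 6.03 to 20.3 CPM in the P6 libraries. In the P6 ileum, replicate 2 held 180.6 CPM of 4 smooth muscle markers and 223.6 CPM of 4 fibroblast markers, where the median library of that group held 2.26 and 28.6 CPM. Replicate 4 of the P6 ileum stood apart in another way, with 256 CPM of the keratin Krt8 against 1113 to 1331 CPM in the other libraries of its group. The P6 mice carry label prefixes of a pair of kinds, replicates 1 and 3 the one and replicates 2 and 4 the other, and 11 of the 51 tested members (21.6%) split by prefix in both regions, against 17.6% of all tested genes. The part of the goblet and Paneth cell markers in the results below was not tested.

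With age, most of the tested fucosylating, N-acetylgalactosamine-capping and chain-lengthening enzymes rose and 3 sialyltransferases of the St3gal family fell steeply. A gene is called changed here where its adjusted p in edgeR's quasi-likelihood test (Benjamini-Hochberg over 13429 genes) was below 0.05. In the jejunum 35 of the 51 tested members changed between P6 and P36, 26 up and 9 down, where 51.6% of all tested genes changed (24.7% up, 26.9% down). In the ileum 34 changed, 26 up and 8 down, where 55.7% of all tested genes changed (25.5% up, 30.1% down). The median log2 fold change of the members was 0.71 in the jejunum and 0.94 in the ileum, beside -0.01 and -0.03 over all tested genes. Past the study's fold minimum, an absolute log2 fold change above 2, lay 21 members in the jejunum, 17 up and 4 down, where 16.4% of all tested genes did (7.86% up, 8.59% down). In the ileum 20 members lay past it, 17 up and 3 down, where 16.4% of all tested genes did (6.40% up, 10.0% down). The same 23 members rose in both regions and the same 7 fell in both, namely B3gnt2, Galnt3, Galnt11, Gcnt2, St3gal1, St3gal3 and St3gal5, and none moved in opposite directions. No joint count was made over all tested genes, so this agreement is not shown to be particular to the members.

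**Figure D1:**
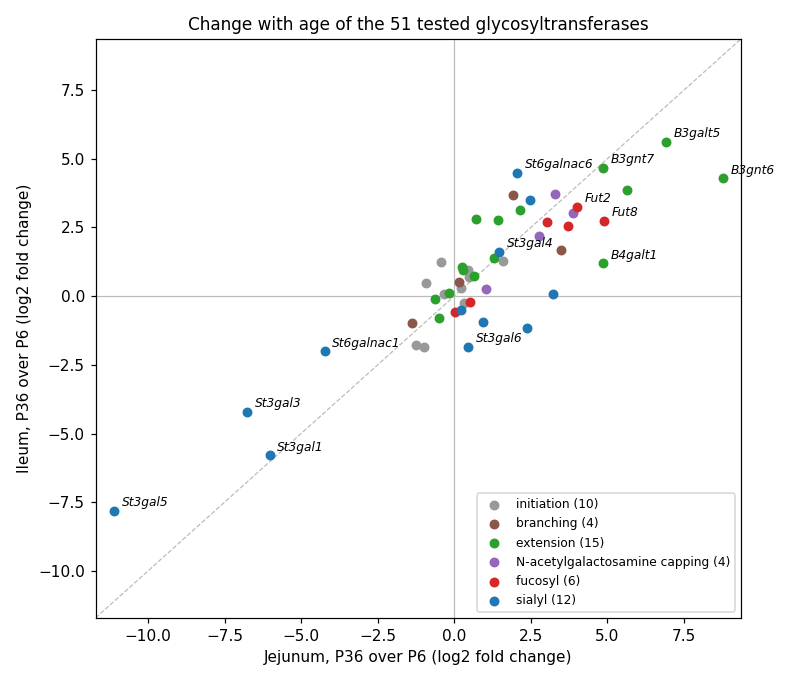
Log2 fold change from P6 to P36 in the jejunum (x axis) and in the ileum (y axis) of the 51 tested members, coloured by step of synthesis, with the number of members in brackets and a dashed line where both regions are equal. St3gal1, St3gal3 and St3gal5 lie far down on the left, from -4.20 to -11.11, while fucosyl, capping and extending enzymes fill the upper right.

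More members passed the test between regions at P6 than at P36. Regional log2 fold changes are given as jejunum over ileum, so that a negative value is higher in the ileum, and every log2 value with ± carries its SE. At P6, 27 of the 51 members differed between jejunum and ileum, 10 higher in the jejunum and 17 higher in the ileum, where 25.9% of all tested genes differed (11.1% and 14.8%). At P36, 12 differed, 1 higher in the jejunum and 11 higher in the ileum, where 16.1% of all tested genes differed (8.30% and 7.80%). Past the fold minimum lay 9 members at P6, 2 jejunal and 7 ileal, where 6.50% of all tested genes did (2.20% and 4.30%). At P36 there were 3 past it, all higher in the ileum, where 3.60% of all tested genes were past it (2.06% higher in the jejunum, 1.55% in the ileum). With only the 8 P6 libraries in the fit, 4 lay past it at P6. The P36 count of 12 became 5 without P36 jejunum replicate 1, and 7 without jejunum replicate 2, jejunum replicate 4 or ileum replicate 3, each with 1 past the fold minimum. For 13 members the regional difference itself changed with age (interaction term), 5 with the more jejunal value at P6 and 8 with the more ileal one, where it did for 8.69% of all tested genes (3.68% and 5.01%). Of these, 7 changed by more than the fold minimum, 3 and 4 in the same order, as did 3.37% of all tested genes (1.12% and 2.25%). Without P6 ileum replicates 2 and 4, the libraries that stand apart, 25 members differed at P6, of which 21 were among the 27. The regional calls at P6 of B3gnt3, B4galnt2, B4galt5, Gcnt1, St3gal2 and St8sia4 were lost then, and of the 14 members whose regional difference changed with age, 4 lay past the fold minimum. Scaling by library totals in place of the trimmed mean shifted the median regional fold change of all genes by -0.29 at P6 and by -0.14 at P36, and turned the P6 split into 8 higher in the jejunum and 22 higher in the ileum. Within mice, 25 of the 27 members that differed at P6 had the same direction in 4 of 4 mice, St6galnac1 and St8sia4 being the others, and at P36 all 12 did. These members were called from the same libraries, so the agreement is no separate evidence, and the share over all called genes was not counted.

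The sialyltransferases of the St3gal family carried the largest falls of all members. St3gal enzymes put sialic acid on terminal galactose, and St3gal1 acts mainly on the core 1 disaccharide of mucin-type chains. St3gal1 at P6 came to 801, 742, 816 and 699 CPM in jejunal libraries and to 816, 784, 895 and 618 CPM in ileal ones. Jejunal St3gal1 at P36 was 11.8, 8.69, 11.3 and 15.0 CPM, and ileal St3gal1 was 10.8, 13.2, 16.7 and 15.3 CPM. Every P36 library was far below every P6 library, and the regions overlapped at both ages. St3gal1 fell in both regions, with log2 fold changes of -6.03 ± 0.22 (SE, jejunum) and -5.80 ± 0.22 (ileum) and adjusted p of 1.20e-11 and 1.71e-11.

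St3gal3, another sialyltransferase of terminal galactose, also fell in both regions. Jejunal St3gal3 at P6 was 200.5, 204, 188 and 198 CPM, and ileal St3gal3 was 79.3, 92.9, 86.1 and 39.6 CPM. St3gal3 at P36 came to 1.18, 1.06, 3.01 and 1.97 CPM in jejunal libraries and to 3.10, 3.80, 5.19 and 4.04 CPM in ileal ones. The order of the regions turned, with the jejunum higher at P6 and the ileum higher at P36, without overlap at either age. The regional log2 fold change was 1.41 ± 0.28 at P6 (adjusted p = 0.00141) and -1.15 ± 0.32 at P36 (adjusted p = 0.0199), and the change between ages was 2.56 ± 0.42 (adjusted p = 0.00111). The P36 difference did not pass without P36 jejunum replicate 1 (-1.0, adjusted p = 0.0711), jejunum replicate 2 (-0.96, 0.0668) or ileum replicate 3 (-1.0, 0.07). St3gal3 fell with age, with log2 fold changes of -6.76 ± 0.36 (jejunum) and -4.20 ± 0.32 (ileum) and adjusted p of 3.68e-10 and 2.23e-08.

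St3gal5, the synthase of the ganglioside GM3, went from a high level to almost nothing. St3gal5 at P6 came to 186, 289, 151 and 311 CPM in jejunal libraries and to 34.9, 55.1, 30.4 and 35.6 CPM in ileal ones. Jejunal St3gal5 at P36 was 0.177, 0, 0.135 and 0.107 CPM, and ileal St3gal5 was 0.221, 0.227, 0.0408 and 0.237 CPM. All 4 jejunal libraries together held 20127 counts at P6 and 8 at P36, and the ileal libraries held 3273 and 12. Jejunal libraries exceeded ileal ones at P6, and in each region replicates 2 and 4, the mice of one label prefix, were above replicates 1 and 3. The log2 fold change with age was -11.11 ± 0.49 in the jejunum (adjusted p = 6.87e-11) and -7.81 ± 0.45 in the ileum (adjusted p = 1.08e-09). At P6 the jejunum exceeded the ileum by 2.59 ± 0.30 (adjusted p = 1.24e-05). The change of this regional difference with age, 3.30 ± 0.84 (adjusted p = 0.0228), has only these few P36 counts behind it and did not pass without P36 ileum replicate 1, 2 or 4 (adjusted p = 0.0592, 0.0713 and 0.0594).

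St3gal4, which sialylates galactose in lactosamine units, moved the other way. Jejunal St3gal4 at P6 was 372, 641, 344 and 559 CPM, and ileal St3gal4 was 238, 424, 344 and 449.8 CPM. Jejunal St3gal4 at P36 was 2185, 985, 1073 and 1026 CPM, and ileal St3gal4 was 2406, 641, 633 and 786 CPM. Replicate 1 at P36, the same mouse in both regions, was far above the other 3 mice, yet every P36 library exceeded every P6 library of its region. The rise was 1.46 ± 0.42 in the jejunum (adjusted p = 0.00853) and 1.62 ± 0.42 in the ileum (adjusted p = 0.00418). Without replicate 1 it was 1.10 in the jejunum and 0.92 in the ileum, and passed in both. St3gal4 shares 83 exonic bases with a gene on the opposite strand. The kit was stranded, and the strand setting of the counting is not given in the sources used here. Regional differences did not pass at either age (0.40 ± 0.41 at P6 and 0.24 ± 0.41 at P36, adjusted p = 0.514 and 0.769), but that at P36 passed without ileum replicate 1 (0.94, adjusted p = 0.0489).

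St3gal6 and St3gal2 changed in fewer contrasts or from few counts. St3gal6, which like St3gal4 acts on lactosamine ends, measured 26.7, 31.6, 25.5 and 36.1 CPM in jejunal and 31.0, 37.0, 40.7 and 113 CPM in ileal libraries at P6. St3gal6 at P36 came to 53.4, 52.7, 28.7 and 30.5 CPM in jejunal libraries and to 28.9, 18.8, 7.68 and 6.33 CPM in ileal ones. Replicate 4 of the P6 ileum, one of the libraries that stand apart, was the highest of all. St3gal6 fell with a log2 fold change of -1.84 ± 0.47 with age in the ileum (adjusted p = 0.00371), which was -1.23 without that library (adjusted p = 0.0153), while in the jejunum its change of 0.46 ± 0.46 did not pass (adjusted p = 0.424). Its interaction term, -2.30 ± 0.66 (adjusted p = 0.0392), did not pass without P6 ileum replicate 4 (-1.69, adjusted p = 0.0525), nor without any of the P6 jejunal replicates, P36 jejunum replicate 1, 2 or 4, or P36 ileum replicate 2, 3 or 4, with adjusted p from 0.0503 to 0.0837. With the mouse as a block, the P36 jejunum was higher than the P36 ileum by 1.62 (adjusted p = 0.00374), where the fit without it gave 1.42 ± 0.47 (adjusted p = 0.0502) and passed without P36 jejunum replicate 3 or ileum replicate 1 (1.59 and 1.92). St3gal2, another enzyme of core 1 chains, had 8 jejunal and 62 ileal counts at P6, and 42 and 24 at P36. St3gal2 at P6 came to 0.175, 0, 0.105 and 0.0958 CPM in jejunal libraries and to 0.296, 1.68, 0.217 and 0.638 CPM in ileal ones. Jejunal St3gal2 at P36 was 0.353, 0.618, 0.584 and 0.480 CPM, and ileal St3gal2 was 0.0553, 0.0567, 0.653 and 0.475 CPM. The highest library, P6 ileum replicate 2, was also the one with smooth muscle and fibroblast markers. Without it the P6 difference of -2.85 ± 0.86 (adjusted p = 0.0227) became -1.97 (adjusted p = 0.0999), with the mouse as a block it was -2.57 (adjusted p = 0.0707), and it did not pass without P6 jejunum replicate 2 or 4 either (-2.44 and -2.86). The rise with age in the jejunum, 2.37 ± 0.88 (adjusted p = 0.0326), lost its call without P6 jejunum replicate 2, 3 or 4 or P36 jejunum replicate 2, 3 or 4, with values from 1.96 to 2.42. Its interaction term, -3.54 ± 1.16 (adjusted p = 0.0715), passed without P6 ileum replicate 3 or P36 ileum replicate 3 (-3.85 and -4.34).

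St6gal1, which puts sialic acid on the lactosamine ends of N-linked chains, was an ileal gene at P6. Jejunal St6gal1 at P6 was 0.873, 1.20, 0.893 and 0.670 CPM, and ileal St6gal1 was 11.2, 7.75, 11.4 and 9.07 CPM. St6gal1 at P36 came to 1.47, 0.132, 3.59 and 1.87 CPM in jejunal libraries and to 1.88, 4.54, 7.43 and 6.57 CPM in ileal ones. The regions did not overlap at P6 and overlapped at P36. The P6 difference was -3.42 ± 0.60 (adjusted p = 5.71e-04). The changes with age, 0.95 ± 0.59 in the jejunum and -0.95 ± 0.54 in the ileum, did not pass (adjusted p = 0.197 and 0.144), although that in the jejunum passed without P36 jejunum replicate 2 (1.34, adjusted p = 0.017). Its P36 difference of -1.53 ± 0.56 (adjusted p = 0.0787) passed without P36 jejunum replicate 3 or ileum replicate 1 (-2.13 and -1.80), and its interaction term of -1.90 ± 0.80 (adjusted p = 0.166) passed without P36 jejunum replicate 2 (-2.29).

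Among the St6galnac enzymes, which put sialic acid on N-acetylgalactosamine, St6galnac2 passed no test in the fit of all libraries. St6galnac2 at P6 came to 36.3, 61.0, 13.3 and 66.8 CPM in jejunal libraries and to 44.5, 62.5, 27.6 and 34.1 CPM in ileal ones. Jejunal St6galnac2 at P36 was 46.4, 46.4, 57.0 and 54.6 CPM, and ileal St6galnac2 was 30.6, 29.9, 29.5 and 28.6 CPM. The mice spread widely at P6 and little at P36, where the regions did not overlap. That P36 difference, 0.78 ± 0.35 (adjusted p = 0.154), passed with only the 8 P36 libraries in the fit (0.81, adjusted p = 5.96e-04). St6galnac1, which makes the sialyl-Tn antigen of goblet cell mucin, measured 3.66, 9.91, 0 and 6.13 CPM in jejunal and 0.444, 0.732, 0 and 1.52 CPM in ileal libraries at P6. Jejunal St6galnac1 at P36 was 0.177, 0.265, 0.359 and 0.213 CPM, and ileal St6galnac1 was 0, 0.227, 0.204 and 0.237 CPM, from 21 and 12 counts in all. Replicate 3 was at 0 in both P6 regions, and the mice of one label prefix, replicates 2 and 4, were above the others. Its log2 fold change with age in the jejunum was -4.23 ± 1.10 (adjusted p = 0.0044). The P6 difference of 2.85 ± 1.00 (adjusted p = 0.0459) did not pass without P6 jejunum replicate 1, 2 or 4 or P6 ileum replicate 1, 2 or 3, with values from 2.26 to 2.97, and was 4.36 without P6 ileum replicates 2 and 4 together (adjusted p = 0.0339).

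St6galnac4 and St6galnac6, which put sialic acid on chains that already carry one, were highest in the same P36 mice. These genes lie end to end on the plus strand of chromosome 2, St6galnac4 ending at base 32599696 and St6galnac6 starting at base 32599709. Whether transcripts run from one gene into the other was not tested. Jejunal St6galnac6 at P6 was 0.0873, 1.38, 0.0525 and 0.0479 CPM, and ileal St6galnac6 was 0.592, 6.46, 1.03 and 0.638 CPM. St6galnac6 at P36 came to 2.59, 0.0882, 3.73 and 0.373 CPM in jejunal libraries and to 71.3, 1.64, 121 and 4.91 CPM in ileal ones. The P36 mice of replicates 1 and 3 were above those of replicates 2 and 4 in both regions, and at P6 the highest library was ileum replicate 2, the one with smooth muscle markers. It rose by 4.49 ± 1.31 in the ileum (adjusted p = 0.0086), with overlapping libraries. The P36 difference, -4.88 ± 1.35 (adjusted p = 0.0212), did not pass without P36 jejunum replicate 1, 2 or 4 or P36 ileum replicate 3, with values from -5.14 to -3.94. With the mouse as a block the P6 difference passed (-2.68, adjusted p = 4.62e-04, against 0.239 without it), and so did the interaction term (1.95, adjusted p = 0.0334). Without the block the P6 difference of -2.44 ± 1.46 ran from -4.99 without P6 jejunum replicate 2 to -0.88 without P6 ileum replicate 2 (adjusted p = 0.108 and 0.721). St6galnac4 at P6 came to 0.262, 0.357, 0.210 and 0.0958 CPM in jejunal libraries and to 0.247, 1.03, 0.651 and 0.343 CPM in ileal ones. Jejunal St6galnac4 at P36 was 1.71, 0.662, 2.65 and 0.320 CPM, and ileal St6galnac4 was 12.5, 1.08, 10.6 and 2.06 CPM. It rose by 3.51 ± 0.79 in the ileum (adjusted p = 0.0014). Its rise in the jejunum, 2.49 ± 0.85 (adjusted p = 0.0222), lost its call without P6 jejunum replicate 3 or 4 or P36 jejunum replicate 3 (2.45, 2.24 and 1.98), and its P36 difference, -2.30 ± 0.74 (adjusted p = 0.0439), without P36 jejunum replicate 1, 2 or 4 or P36 ileum replicate 1 or 3, with values from -2.43 to -1.79.

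St8sia4, a polysialyltransferase, had few counts throughout. Jejunal St8sia4 at P6 was 0.218, 0.223, 0.0525 and 0.0958 CPM, and ileal St8sia4 was 0.0987, 2.37, 0.217 and 0.638 CPM. St8sia4 at P36 came to 1.53, 0.882, 2.60 and 0.799 CPM in jejunal libraries and to 0.276, 1.25, 1.18 and 0.871 CPM in ileal ones. In the P36 jejunum replicates 3 and 1 were highest, and the same libraries held the most of 5 T cell markers, up to 47.7 CPM where the lowest library held 5.34 CPM. The ileum did not have this order. St8sia4 was highest there in replicate 2 at both ages, with 5.99 CPM of these markers at P6 and 5.27 CPM at P36. The most of them was in replicate 4 at P6 (11.03 CPM) and in replicate 3 at P36 (15.15 CPM). The part of T cells was not tested. The rise of St8sia4 in the jejunum was 3.22 ± 0.85 (adjusted p = 0.00473). In the ileum the change was 0.09 ± 0.74 (adjusted p = 0.928), and without P6 ileum replicates 2 and 4 it rose there too (2.49, adjusted p = 0.0158). Its P6 difference of -2.44 ± 0.85 (adjusted p = 0.0459) became -1.06 without P6 ileum replicate 2, the library with smooth muscle markers (adjusted p = 0.33), became -2.02 with the mouse as a block (adjusted p = 0.0921), and did not pass without any P6 jejunal replicate, with values from -2.69 to -2.18. Its interaction term, -3.13 ± 1.12 (adjusted p = 0.1), passed without P6 ileum replicate 1 (-3.50).

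The fucosyltransferases had low levels before weaning, and most of those tested rose. Fut2 and Fut1 make the H antigen, the end that many gut bacteria bind, Fut4 fucosylates lactosamine units to Lewis x ends, and Fut8 adds the core fucose of N-linked chains. In the jejunum 5 of the 6 tested members rose (Fut1, Fut2, Fut4, Fut8 and Fut11), in the ileum 4 of 6 did (Fut1, Fut2, Fut4 and Fut8), and none fell. The median log2 fold change was 3.38 in the jejunum and 2.64 in the ileum. Of all tested genes, 24.7% rose in the jejunum and 25.5% in the ileum. At P6, Fut2, Fut4, Fut8 and Fut11 were higher in the ileum than in the jejunum, while at P36 none of the 6 passed in edgeR or in DESeq2 (edgeR adjusted p from 0.151 to 0.751), with Fut2 and Fut11 below 0.05 before adjustment in both.

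Fut8 rose most of the fucosyltransferases in the jejunum. Fut8 at P6 came to 3.23, 4.42, 3.26 and 3.40 CPM in jejunal libraries and to 10.6, 8.75, 8.35 and 23.7 CPM in ileal ones. Jejunal Fut8 at P36 was 105, 111, 103 and 103 CPM, and ileal Fut8 was 72.7, 80.4, 109.8 and 82.8 CPM. The jejunum lay below the ileum at P6 and overlapped it at P36. The rise was 4.88 ± 0.31 in the jejunum (adjusted p = 2.92e-09) and 2.75 ± 0.28 in the ileum (adjusted p = 5.93e-07). The regional difference was -1.84 ± 0.28 at P6 (adjusted p = 1.75e-04) and 0.29 ± 0.26 at P36 (adjusted p = 0.522), and its change with age was -2.13 ± 0.38 (adjusted p = 0.00213).

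Fut4 also rose in both regions. Jejunal Fut4 at P6 was 4.28, 2.86, 3.68 and 3.06 CPM, and ileal Fut4 was 6.91, 4.48, 7.59 and 8.48 CPM. Fut4 at P36 came to 52.7, 58.4, 36.8 and 34.6 CPM in jejunal libraries and to 36.6, 34.6, 46.2 and 45.0 CPM in ileal ones. All P36 libraries were far above the highest P6 library. The rise was 3.71 ± 0.24 in the jejunum (adjusted p = 3.51e-09) and 2.56 ± 0.23 in the ileum (adjusted p = 1.35e-07). The ileum was ahead at P6 (-0.98 ± 0.23, adjusted p = 0.00446). Its change with age, -1.15 ± 0.31 (adjusted p = 0.0302), did not pass without P6 jejunum replicate 2 or 4, P36 jejunum replicate 1 or 2 or P36 ileum replicate 2, with values from -1.11 to -1.0, nor with the mouse as a block (-1.11, adjusted p = 0.0626).

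Fut2 varied widely between mice. Fut2 at P6 came to 3.45, 1.43, 3.89 and 1.72 CPM in jejunal libraries and to 11.4, 5.47, 15.3 and 7.85 CPM in ileal ones. Jejunal Fut2 at P36 was 69.7, 32.5, 7.77 and 57.7 CPM, and ileal Fut2 was 131, 59.1, 51.8 and 140.5 CPM. P36 jejunum replicate 3 was lower than the other jejunal libraries of its age and still above every P6 jejunal library. At P6, replicates 1 and 3 exceeded replicates 2 and 4 in both regions, which is the split by label prefix. The rise was 4.00 ± 0.61 in the jejunum (adjusted p = 4.97e-05) and 3.26 ± 0.58 in the ileum (adjusted p = 1.89e-04). The P6 difference of -1.93 ± 0.58 (adjusted p = 0.0227) had the same direction in 4 of 4 mice but did not pass without P6 jejunum replicate 2 or 4 or P6 ileum replicate 3 (-1.72, -1.77 and -1.67). At P36 the difference was -1.19 ± 0.53 (adjusted p = 0.151), and with the mouse as a block it passed at -1.42 (adjusted p = 0.00671).

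Fut1 and Fut11 moved within a low range. Jejunal Fut1 at P6 was 0.0436, 0.312, 0.105 and 0.287 CPM, and ileal Fut1 was 0.296, 0.129, 0.38 and 0.343 CPM. Fut1 at P36 came to 1.24, 1.24, 1.75 and 2.13 CPM in jejunal libraries and to 1.88, 1.81, 2.74 and 1.11 CPM in ileal ones. It rose by 3.04 ± 0.50 and 2.72 ± 0.48 (adjusted p = 9.37e-05 and 1.76e-04) and did not differ past the threshold between regions. Fut11 at P6 came to 5.10, 4.60, 4.52 and 4.74 CPM in jejunal libraries and to 9.68, 9.18, 8.24 and 11.9 CPM in ileal ones. Jejunal Fut11 at P36 was 6.41, 6.97, 6.47 and 7.03 CPM, and ileal Fut11 was 8.07, 8.68, 8.50 and 8.07 CPM. The P6 libraries of the regions lay well apart, -1.04 ± 0.14 (adjusted p = 6.30e-05), and Fut11 rose with age in the jejunum by 0.50 ± 0.14 (adjusted p = 0.00737), while its ileal change was -0.23 ± 0.14 (adjusted p = 0.179). Its interaction term, -0.73 ± 0.20 (adjusted p = 0.0321), did not pass without any P6 jejunal replicate, P36 jejunum replicate 1, 2 or 4 or P36 ileum replicate 4, with values from -0.76 to -0.70, nor with the mouse as a block (-0.72, adjusted p = 0.0584). Fut10, the sixth tested member, stayed under 1 CPM in every library and changed in no contrast.

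**Figure D2:**
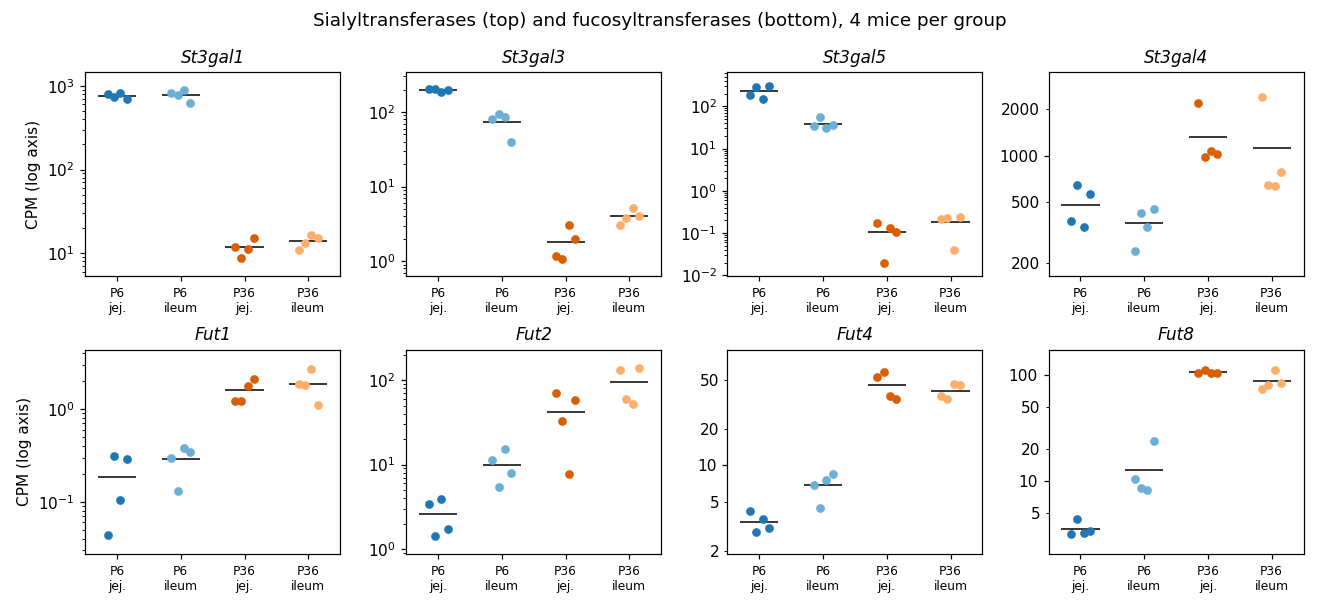
CPM on log axes of 4 sialyltransferases (top row) and 4 fucosyltransferases (bottom row), with 1 point per library, 4 per group, and a line at the group mean. A library at 0 is drawn at 0.02 CPM. St3gal1, St3gal3 and St3gal5 drop from P6 to P36, while St3gal4 and the fucosyltransferases rise, St3gal4 with replicate 1 at 2185 and 2406 CPM.

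Set side by side, the tested fucosyltransferases that changed with age all rose, while the sialyltransferases split. Of the 12 tested sialyltransferases, 4 rose (St3gal2, St3gal4, St6galnac4 and St8sia4) and 4 fell (St3gal1, St3gal3, St3gal5 and St6galnac1) in the jejunum, and 3 rose (St3gal4, St6galnac4 and St6galnac6) and 4 fell (St3gal1, St3gal3, St3gal5 and St3gal6) in the ileum. Their median log2 fold change was 0.71 in the jejunum and -1.06 in the ileum. Of all tested genes, 24.7% rose and 26.9% fell in the jejunum, and 25.5% rose and 30.1% fell in the ileum. A split as such is therefore not particular to the sialyltransferases. Summed over all 20 members, the sialyltransferases were at 582.9 ± 110.7 RPKM (SD, n = 4) in jejunal and 417.6 ± 51.5 RPKM in ileal libraries at P6, and at 705.0 ± 289.1 and 600.1 ± 435.4 RPKM at P36. Summed over all 8 members, the fucosyltransferases were at 4.35 ± 0.504, 11.5 ± 2.66, 55.5 ± 10.3 and 67.6 ± 13.4 RPKM in the same order. This sum was not restricted to enzymes of chain ends, and Fut8, which adds core fucose, is one example. The sialyl sums overlapped between the ages in both regions, with replicate 1 at P36 the highest at 1138 and 1252 RPKM, while the fucosyl sums of the ages lay apart. Without replicate 1 the P36 sialyl means were 560.6 RPKM in the jejunum and 382.8 RPKM in the ileum, below the P6 means in both regions.

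Within each library, the log2 ratio of the fucosyl sum to the sialyl sum was -7.05 ± 0.44 in the jejunum and -5.20 ± 0.42 in the ileum at P6, and -3.61 ± 0.42 and -2.95 ± 0.77 at P36 (SD, n = 4). The sialyl sum exceeded the fucosyl sum in all 16 libraries, from 5.03-fold in P36 ileum replicate 4 to 173-fold in P6 jejunum replicate 2. The groups did not overlap between ages in either region, nor between the regions at P6, and P36 ileum replicate 1 lay within the range of the P36 jejunum. In place of sums, the fucosyl minus sialyl difference in mean log2 level was taken over all members of each family, tested or not. It was -1.21 and -0.64 at P6 and turned positive at P36, 1.54 in the jejunum and 1.46 in the ileum. Each gene has the same weight in it, so members with almost no counts weigh as much as the highest. Without the highest member of each family the P36 log2 ratios were -1.01 and -0.05. The composition of the sialyl sum differed between the ages. St3gal4 made up 39.9% of it in jejunal and 42.4% in ileal libraries at P6, and 91.4% and 90.0% at P36. St3gal1 made up 23.5% and 32.8% at P6, and 0.315% and 0.547% at P36. Within the fucosyl sum, Fut11 had the largest share in the P6 jejunum (32.9%), Fut8 in the P36 jejunum (49.0%) and Fut2 in the P36 ileum (44.5%, overlapping that of Fut8 at 33.4%), while in the P6 ileum the shares of Fut2 (28.5%), Fut8 (27.1%) and Fut11 (26.0%) overlapped between libraries.

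**Figure D3:**
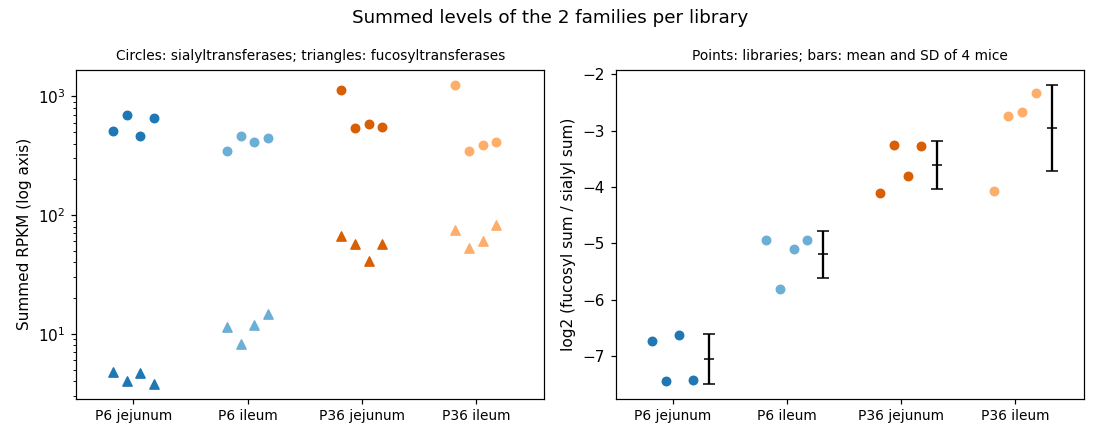
Left, summed RPKM per library on a log axis of the 20 sialyltransferases (circles) and the 8 fucosyltransferases (triangles). Right, the log2 ratio of the fucosyl to the sialyl sum per library, with the mean and SD of each group of 4 mice, which climbs from -7.05 in the P6 jejunum to -2.95 in the P36 ileum.

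Per kilobase of exon, St3gal4 was the highest of all 73 members in every group, at 236 ± 71.1, 179 ± 46.9, 649 ± 286 and 550.2 ± 425 RPKM (SD) in the P6 jejunum, P6 ileum, P36 jejunum and P36 ileum. St3gal1 was next at P6, at 132 ± 9.43 and 135 ± 20.2 RPKM, and its libraries overlapped those of St3gal4 in the ileum. At P36 B4galnt2 was next, at 230.3 ± 12.8 and 220.4 ± 39.2 RPKM, followed by B4galnt1 at 134 ± 3.52 and 108 ± 17.3 RPKM. At P6 there were 4 sialyltransferases among the 6 highest members in the jejunum, and at P36 there was 1. In the ileum the sialyltransferases among the 6 highest were St3gal4 and St3gal1 at P6, and St3gal4 alone at P36.

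Of the 4 N-acetylgalactosamine capping enzymes, 3 rose in both regions, with a median log2 fold change over the 4 of 3.04 in the jejunum and 2.61 in the ileum. Of all tested genes, 24.7% rose in the jejunum and 25.5% in the ileum. B4galnt2 ends chains with the Sda antigen, an end that also carries sialic acid. Jejunal B4galnt2 at P6 was 52.0, 79.6, 47.5 and 79.5 CPM, and ileal B4galnt2 was 103, 99.4, 86.9 and 153 CPM. B4galnt2 at P36 came to 984, 869, 935 and 976 CPM in jejunal libraries and to 1022, 802, 728 and 1050.4 CPM in ileal ones. The ages did not overlap. The rise was 3.86 ± 0.23 in the jejunum (adjusted p = 1.67e-09) and 3.02 ± 0.23 in the ileum (adjusted p = 1.97e-08). At P6 the ileum was higher (-0.78 ± 0.21, adjusted p = 0.0131), which did not pass without P6 jejunum replicate 1 (-0.68, adjusted p = 0.0501). With the mouse as a block its interaction term passed (-0.86, adjusted p = 0.0349), where the fit without it gave -0.84 (adjusted p = 0.0967).

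B4galnt1, the enzyme that turns GM3 into more complex gangliosides, rose while the GM3 synthase St3gal5 fell. B4galnt1 at P6 came to 50.2, 35.0, 56.0 and 39.0 CPM in jejunal libraries and to 32.8, 25.5, 41.7 and 7.31 CPM in ileal ones. Jejunal B4galnt1 at P36 was 435, 428, 449 and 453 CPM, and ileal B4galnt1 was 432, 339, 295 and 352 CPM. P6 ileum replicate 4 was the lowest of all libraries. The rise was 3.29 ± 0.37 (adjusted p = 1.67e-06) and 3.73 ± 0.38 (adjusted p = 5.39e-07) in the jejunum and ileum. The P6 regional difference of 0.75 ± 0.34 did not pass (adjusted p = 0.118), but passed with the mouse as a block (0.94, adjusted p = 0.0439) and without P6 ileum replicate 3 (1.03). Without P6 ileum replicate 4 it was 0.44 (adjusted p = 0.0806), and without replicates 2 and 4 it was 0.25 (adjusted p = 0.366). Within mice it was 2.40 in mouse 4 and 0.43 to 0.61 in the others. Jejunal B4galnt4 at P6 was 3.14, 2.36, 3.41 and 2.87 CPM, and ileal B4galnt4 was 6.81, 4.65, 5.69 and 2.11 CPM. B4galnt4 at P36 came to 23.1, 19.6, 23.1 and 15.2 CPM in jejunal libraries and to 23.9, 25.5, 19.8 and 18.9 CPM in ileal ones. It rose by 2.78 ± 0.28 and 2.19 ± 0.27 (adjusted p = 6.09e-07 and 5.74e-06). Its P6 difference of -0.71 ± 0.28 (adjusted p = 0.0705) and its interaction term of -0.58 ± 0.38 (adjusted p = 0.378) passed without P6 ileum replicate 4 (-0.95 and -0.83). B4galnt3, with jejunal means of 11.0 ± 2.29 CPM (SD) at P6 and 22.3 ± 3.22 CPM at P36, changed in no contrast.

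Among the branching enzymes, Gcnt3, which makes core 2 and core 4 branches in mucin-secreting cells, differed between regions at P6 and overlapped between them at P36. Gcnt3 at P6 came to 12.7, 12.0, 12.6 and 13.2 CPM in jejunal libraries and to 44.5, 35.0, 41.2 and 55.2 CPM in ileal ones. Jejunal Gcnt3 at P36 was 181, 153, 128 and 102 CPM, and ileal Gcnt3 was 155, 136, 118 and 159 CPM. The regional difference was -1.80 ± 0.18 at P6 (adjusted p = 2.79e-06) and -0.01 ± 0.17 at P36 (adjusted p = 0.986), and its change with age was -1.79 ± 0.25 (adjusted p = 2.82e-04). The rise was 3.48 ± 0.19 in the jejunum (adjusted p = 5.03e-10) and 1.69 ± 0.18 in the ileum (adjusted p = 8.25e-07).

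Gcnt1, a core 2 enzyme of wide expression, was mainly ileal after weaning. Jejunal Gcnt1 at P6 was 0.262, 0.669, 0.315 and 0.239 CPM, and ileal Gcnt1 was 0.592, 2.63, 1.57 and 2.5 CPM. Gcnt1 at P36 came to 1.47, 0.794, 2.29 and 1.12 CPM in jejunal libraries and to 41.5, 25.7, 6.33 and 19.8 CPM in ileal ones. The regions did not overlap at P36, with a log2 difference of -4.03 ± 0.56 (adjusted p = 1.39e-04), and overlapped at P6, with -2.27 ± 0.62 (adjusted p = 0.0129). Without P6 ileum replicates 2 and 4, the P6 value was -1.53 (adjusted p = 0.179). It rose by 3.67 ± 0.55 in the ileum (adjusted p = 3.59e-05) and by 1.91 ± 0.62 in the jejunum (adjusted p = 0.0178), the latter losing its call without P6 jejunum replicate 1 or 4 or P36 jejunum replicate 3 (1.76, 1.75 and 1.65). Gcnt2, the I-branching enzyme, fell in both, with log2 fold changes of -1.38 ± 0.21 (jejunum) and -0.98 ± 0.21 (ileum) and adjusted p of 4.33e-05 and 8.34e-04. Gcnt4 ranged from 57.2 to 162 CPM over all libraries and changed in no contrast, except that with the mouse as a block its P6 difference passed (0.63, adjusted p = 0.0331, against 0.58 ± 0.23 and 0.0714).

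The enzymes that lengthen chains split by age and by region. B4galt1, the main galactosyltransferase of lactosamine and a subunit of lactose synthase elsewhere, had the largest regional log2 fold change at P6 among the tested members with counts in both regions. B4galt1 at P6 came to 6.94, 6.16, 7.88 and 6.08 CPM in jejunal libraries and to 99.3, 94.9, 95.1 and 86.3 CPM in ileal ones. Jejunal B4galt1 at P36 was 224, 205, 171 and 194 CPM, and ileal B4galt1 was 274, 186, 176 and 229 CPM. The P6 jejunum stood alone below all other groups. The regional difference was -3.79 ± 0.17 at P6 (adjusted p = 4.33e-10) and -0.12 ± 0.14 at P36 (adjusted p = 0.635), with an interaction term of -3.67 ± 0.21 (adjusted p = 4.77e-08). The rise with age was 4.87 ± 0.17 in the jejunum (adjusted p = 8.80e-12) and 1.20 ± 0.15 in the ileum (adjusted p = 4.58e-06).

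B4galt4 showed the opposite regional order before weaning. Jejunal B4galt4 at P6 was 25.2, 26.8, 22.7 and 27.9 CPM, and ileal B4galt4 was 7.40, 9.69, 9.17 and 8.53 CPM. B4galt4 at P36 came to 40.2, 41.9, 42.9 and 42.7 CPM in jejunal libraries and to 60.2, 54.9, 61.8 and 66.5 CPM in ileal ones. The order turned, without overlap at either age. The difference was 1.56 ± 0.12 at P6 (adjusted p = 1.64e-07) and -0.54 ± 0.11 at P36 (adjusted p = 0.00386), and the interaction term was 2.10 ± 0.16 (adjusted p = 7.50e-07). B4galt6, a synthase of lactosylceramide, measured 63.0, 80.7, 40.0 and 78.3 CPM in jejunal and 14.7, 17.5, 9.54 and 35.9 CPM in ileal libraries at P6. B4galt6 at P36 came to 192, 199, 152 and 166 CPM in jejunal libraries and to 202, 123, 77.7 and 133 CPM in ileal ones. It was higher in the jejunum at P6, by 1.75 ± 0.36 (adjusted p = 0.00192), and rose by 1.44 ± 0.35 and 2.79 ± 0.37 with age (adjusted p = 0.00296 and 1.14e-05). With the mouse as a block its interaction term passed (1.40, adjusted p = 0.0206, against 1.35 and 0.109), as it did without P6 ileum replicate 4 (1.83). B4galt5, the other lactosylceramide synthase, was higher in the jejunum at P6 by 0.93 ± 0.32 (adjusted p = 0.0411), and with the mouse as a block also at P36 (1.00, adjusted p = 0.0257, against 0.85 and 0.0832). B4galt3 rose in both regions (1.31 ± 0.23 and 1.40 ± 0.23, adjusted p = 1.46e-04 and 7.62e-05), and B4galt7, an enzyme of proteoglycan linkers, changed in no contrast.

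B3galt5, which makes type 1 chains, was low before weaning. Jejunal B3galt5 at P6 was 1.05, 0.625, 1.21 and 1.20 CPM, and ileal B3galt5 was 0.395, 0.689, 0.488 and 1.62 CPM. Jejunal B3galt5 at P36 was 169.9, 116, 91.7 and 119 CPM, and ileal B3galt5 was 48.0, 11.2, 38.2 and 60.6 CPM. It was the one member higher in the jejunum at P36, by 1.65 ± 0.41 (adjusted p = 0.0113). The rise was 6.93 ± 0.54 in the jejunum (adjusted p = 2.77e-08) and 5.61 ± 0.52 in the ileum (adjusted p = 2.19e-07). B3galt4 rose in the ileum by 0.94 ± 0.28 (adjusted p = 0.0093), and B3galt6, another enzyme of proteoglycan linkers, changed in no contrast.

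The B3gnt enzymes add N-acetylglucosamine to galactose or to the core, and 4 of the 6 tested rose past the fold minimum in both regions. Of all tested genes, 7.86% rose past it in the jejunum and 6.40% in the ileum. B3gnt3, which extends core 1, measured 20.1, 28.6, 21.2 and 49.2 CPM in jejunal and 12.6, 11.2, 12.0 and 17.4 CPM in ileal libraries at P6. B3gnt3 at P36 came to 187, 128, 100.2 and 108 CPM in jejunal libraries and to 203, 84.5, 77.5 and 96.9 CPM in ileal ones. Replicate 1 was the highest of its age in both regions, as for St3gal4. The rise was 2.13 ± 0.34 (adjusted p = 8.09e-05) and 3.12 ± 0.36 (adjusted p = 2.45e-06) in the jejunum and ileum. The P6 difference of 1.16 ± 0.34 (adjusted p = 0.019) did not pass without P6 jejunum replicate 4 (0.82, adjusted p = 0.0862). B3gnt7, an extending enzyme of sulphated lactosamine chains, measured 1.44, 2.32, 1.68 and 1.58 CPM in jejunal and 3.26, 4.22, 3.80 and 2.26 CPM in ileal libraries at P6. B3gnt7 at P36 came to 61.0, 60.3, 41.8 and 43.0 CPM in jejunal libraries and to 126, 70.7, 60.0 and 91.4 CPM in ileal ones. The rise, 4.87 ± 0.28 in the jejunum and 4.68 ± 0.28 in the ileum (adjusted p = 1.08e-09 and 1.53e-09), left no overlap between ages in either region. The ileum was higher at P6 (-0.94 ± 0.27, adjusted p = 0.0164) and at P36 (-0.76 ± 0.23, adjusted p = 0.0383) with overlapping libraries, and the calls were lost without P6 jejunum replicate 1 or 4 (-0.85 and -0.89) and without any P36 jejunal replicate or P36 ileum replicate 1 or 4 (from -0.84 to -0.52).

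B3gnt6 and B3gnt5 started from a few counts. B3gnt6, the core 3 synthase, had 0 jejunal and 15 ileal counts at P6, and 218 and 244 at P36. Its P6 ileal libraries were at 0.197, 0.258, 0.0542 and 0.196 CPM. Jejunal B3gnt6 at P36 was 2.47, 2.74, 2.51 and 3.09 CPM, and ileal B3gnt6 was 4.70, 3.57, 1.39 and 4.91 CPM. Against a floor of 3 counts over the 4 libraries of the P6 jejunum, it was at least 76.8-fold higher in the P36 jejunum and at least 5.18-fold higher in the P6 ileum (adjusted p = 7.43e-07 and 0.00281). In the ileum it rose by 4.29 ± 0.48 (adjusted p = 7.60e-06). The change of its regional difference with age passed (adjusted p = 0.0217) but not with the mouse as a block (adjusted p = 0.0621). B3gnt5, the lactotriaosylceramide synthase that founds lacto-series glycolipids, had 4 jejunal and 41 ileal counts at P6, and 213 and 571 at P36. Jejunal B3gnt5 at P6 was 0.0873, 0, 0.105 and 0 CPM, and ileal B3gnt5 was 0.296, 0.517, 0.38 and 0.785 CPM. B3gnt5 at P36 came to 2.12, 1.63, 3.82 and 2.93 CPM in jejunal libraries and to 5.97, 6.12, 12.0 and 4.75 CPM in ileal ones. Ileal libraries were above jejunal ones at both ages. The rise was 5.63 ± 0.63 in the jejunum (adjusted p = 1.76e-06) and 3.85 ± 0.48 in the ileum (adjusted p = 5.50e-06). The regional difference was -3.24 ± 0.69 at P6 (adjusted p = 0.00257) and -1.46 ± 0.42 at P36 (adjusted p = 0.0256), the latter without a call when P36 jejunum replicate 1, 2 or 4 or P36 ileum replicate 3 was left out (from -1.52 to -1.10). B3gnt2, the main polylactosamine synthase, fell in both, with log2 fold changes of -0.49 ± 0.17 (jejunum) and -0.79 ± 0.17 (ileum) and adjusted p of 0.0258 and 0.00112, and B3gnt9 changed in no contrast.

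**Figure D4:**
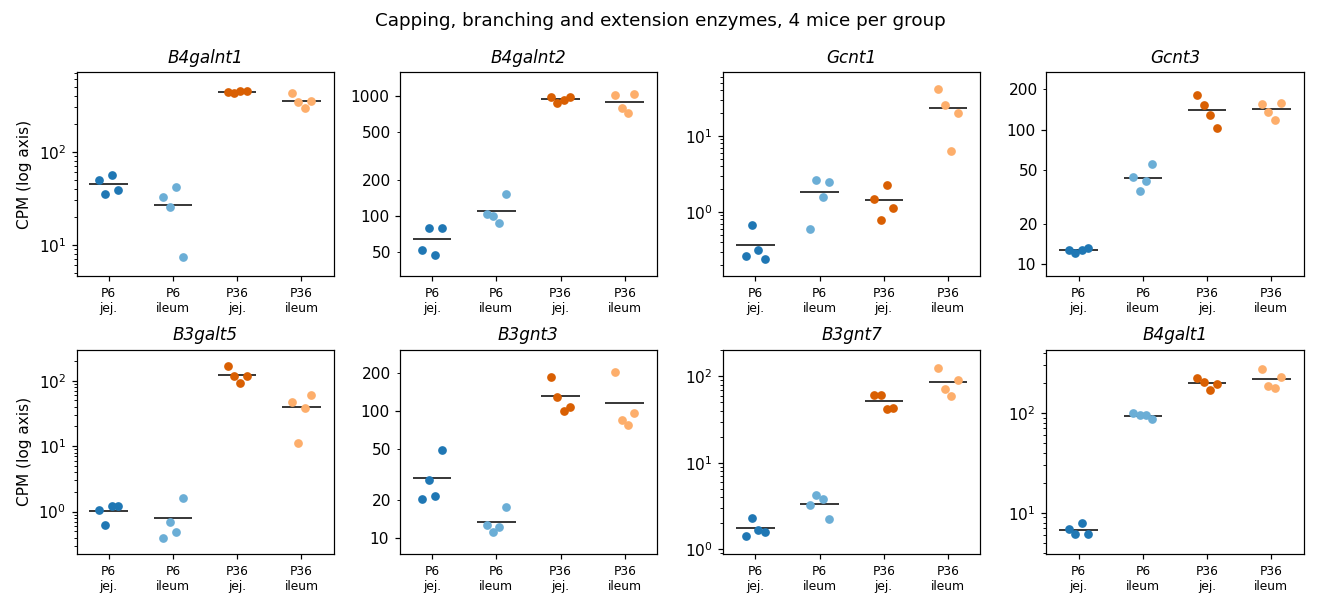
CPM on log axes of 2 capping (B4galnt1, B4galnt2), 2 branching (Gcnt1, Gcnt3) and 4 extending enzymes, with 1 point per library, 4 per group, and a line at the group mean. P36 libraries lie above the P6 libraries of their region in all 8 panels, and in the B4galt1 panel the P6 jejunum, at 6.08 to 7.88 CPM, lies alone below the P6 ileum at 86.3 to 99.3 CPM.

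The initiating Galnt enzymes stayed within the fold minimum. None of the 10 tested passed the fold minimum with age, 3 rose and 3 fell in the jejunum, and 4 rose and 2 fell in the ileum. Of all tested genes, 24.7% rose and 26.9% fell in the jejunum, and 25.5% rose and 30.1% fell in the ileum. Past the fold minimum lay 16.4% of all tested genes in each region, so the counts of these 10 are not shown to be particular to the family. Galnt6 was higher in the jejunum at P6, with 798, 559, 735 and 629.8 CPM in jejunal libraries and 334, 199, 303 and 146 CPM in ileal ones. Galnt6 at P36 came to 345, 331, 363 and 406 CPM in jejunal libraries and to 355, 265, 314 and 427 CPM in ileal ones. The jejunal excess of P6, 1.47 ± 0.23 (adjusted p = 2.30e-04), did not recur at P36, where the difference was 0.09 ± 0.23 (adjusted p = 0.854), with an interaction term of 1.38 ± 0.32 (adjusted p = 0.0134). Galnt6 fell in the jejunum with age (-0.91 ± 0.23, adjusted p = 0.00334), while the ileal change of 0.47 ± 0.23 (adjusted p = 0.0909) passed without P6 ileum replicate 1 (0.67).

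Galnt3 was higher in the ileum. Jejunal Galnt3 at P6 was 72.6, 60.9, 78.7 and 57.6 CPM, and ileal Galnt3 was 198, 162, 182 and 238 CPM. Jejunal Galnt3 at P36 was 34.1, 34.0, 34.2 and 32.6 CPM, and ileal Galnt3 was 45.9, 56.1, 61.9 and 51.4 CPM. The ileum was higher at both ages, -1.53 ± 0.14 at P6 and -0.68 ± 0.14 at P36 (adjusted p = 1.46e-06 and 0.00372), with an interaction term of -0.86 ± 0.20 (adjusted p = 0.0129). It fell in both regions, with log2 fold changes of -1.0 ± 0.14 (jejunum) and -1.86 ± 0.14 (ileum) and adjusted p of 2.19e-05 and 3.04e-08. Galnt10 at P6 came to 182, 167, 157 and 162 CPM in jejunal libraries and to 80.9, 63.1, 71.0 and 14.5 CPM in ileal ones. Galnt10 at P36 came to 129, 119.6, 119 and 125 CPM in jejunal libraries and to 139, 119, 141 and 140.5 CPM in ileal ones. P6 ileum replicate 4, the library with low Krt8, was far below the rest of its group. Galnt10 was higher in the P6 jejunum by 1.54 ± 0.33 (adjusted p = 0.00262) and rose in the ileum by 1.24 ± 0.33 (adjusted p = 0.00454). Its jejunal change of -0.44 ± 0.32 (adjusted p = 0.274) passed with only the 8 jejunal libraries in the fit (-0.43, adjusted p = 1.94e-04). Its interaction term of 1.67 ± 0.46 (adjusted p = 0.033) did not pass without any P6 or P36 jejunal replicate or P36 ileum replicate 2, 3 or 4, with values from 1.63 to 1.71.

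Of the other initiating enzymes, Galnt1 at P6 had a jejunal mean of 378 ± 11.4 CPM (SD, n = 4) and an ileal mean of 231 ± 60.8 CPM, a difference of 0.71 ± 0.18 (adjusted p = 0.0101), and did not change past the threshold with age. Galnt11 fell in both regions, with log2 fold changes of -1.25 ± 0.21 (jejunum) and -1.76 ± 0.21 (ileum) and adjusted p of 9.64e-05 and 3.36e-06. Galnt4, Galnt5 and Galnt12 rose in both regions, Galnt5 the most, by 1.59 ± 0.29 and 1.28 ± 0.28 (adjusted p = 2.92e-04 and 0.00119). These 3 genes were also higher in the ileum at P36, Galnt12 with a difference of -0.87 ± 0.15 (adjusted p = 8.99e-04). Galnt5 was higher in the ileum of every mouse at P6 too, with log2 differences within mice from -1.83 to -0.93. Galnt7 was higher in the ileum at P6 (-0.89 ± 0.13, adjusted p = 1.15e-04), and Galnt2 changed in no contrast.

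**Figure D5:**
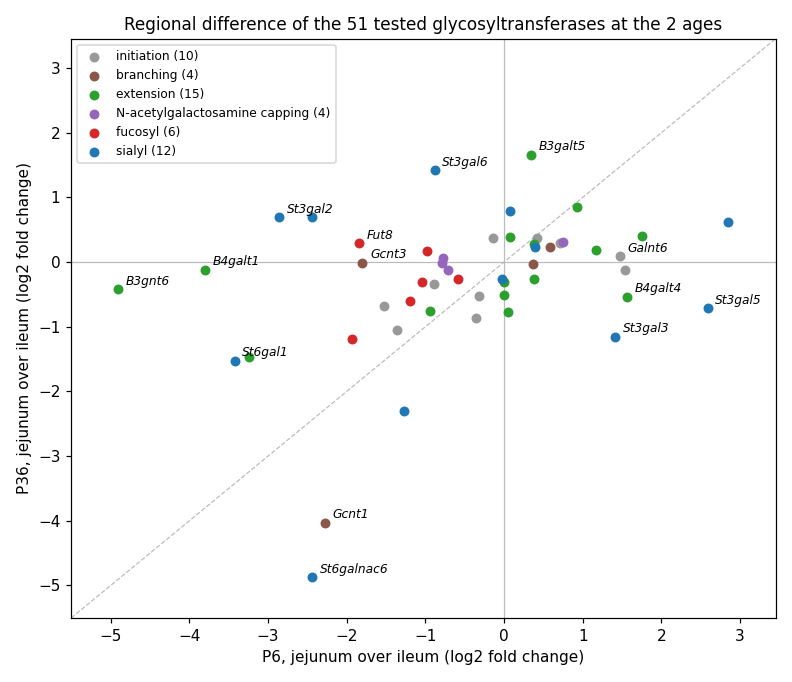
Log2 fold change, jejunum over ileum, at P6 (x axis) and at P36 (y axis) of the 51 tested members, coloured by step of synthesis, with a dashed line where both ages are equal. Points spread along the x axis, as for B4galt1 at -3.79 and -0.12, show members whose regional difference was larger at P6, and St3gal3 and B4galt4 lie in the quadrant where the order of the regions turned.

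The 22 members that were not tested were 8 sialyltransferases (St6gal2, St6galnac3, St6galnac5, St8sia1, St8sia2, St8sia3, St8sia5 and St8sia6), 6 initiating enzymes (Galnt9, Galnt13, Galnt14, Galnt15, Galnt16 and Galnt18), 5 extending enzymes (B3galt1, B3galt2, B3gnt4, B3gnt8 and B4galt2), 2 fucosyltransferases (Fut7 and Fut9) and Gcnt7. Their highest value in any library was 1.16 CPM, in B4galt2. Gcnt7 and St6galnac5 had 0 counts in all 16 libraries. At this depth the other 20 cannot be compared between groups.

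Genes that supply or remove the same sugars moved with age as well. Of 69 such genes in the files, grouped as lists of donor synthesis and transport, acceptors, other transferases and glycosidases, 55 were tested. In the jejunum 38 changed (18 up, 20 down), and in the ileum 38 changed (19 up, 19 down). Of all tested genes, 51.6% changed in the jejunum (24.7% up, 26.9% down) and 55.7% in the ileum (25.5% up, 30.1% down). Of the 6 genes of GDP-fucose supply, 4 rose in both regions (Gmds, Tsta3, Fuk and Slc35c1) and Fpgt fell in both. Gmds, the first enzyme of GDP-fucose synthesis, went from 45.9 ± 2.70 to 429 ± 31.2 CPM (SD, n = 4) in the jejunum (3.23 ± 0.14, adjusted p = 5.28e-11) and from 72.0 ± 7.24 to 500.2 ± 72.5 CPM in the ileum (2.80 ± 0.14, adjusted p = 1.67e-10). Of the 9 genes of sialic acid supply and handling, 3 rose (Gne, Nans and Cmas) and 4 fell (Slc35a1, Renbp, Npl and Slc17a5) in both regions. The ones that rose synthesize CMP-sialic acid, Slc35a1 carries it into the Golgi, and Renbp, Npl and Slc17a5 act on free sugars, by epimerizing them, cleaving them or exporting them from lysosomes.

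Renbp fell from 524 ± 23.9 to 0.843 ± 0.275 CPM in the jejunum (-9.28 ± 0.27, adjusted p = 7.40e-13) and from 654 ± 128 to 1.81 ± 0.366 CPM in the ileum (-8.51 ± 0.26, adjusted p = 2.90e-12). Slc17a5, the lysosomal sialic acid exporter, fell from 1582 ± 544 to 28.7 ± 3.63 CPM and from 2321 ± 553 to 32.4 ± 5.00 CPM (adjusted p = 2.30e-10 and 1.69e-10). Npl, the sialic acid lyase, fell in both regions, with log2 fold changes of -4.89 ± 0.91 (jejunum) and -8.36 ± 1.06 (ileum) and adjusted p of 2.91e-04 and 6.91e-06, and was higher in the P36 jejunum than in the P36 ileum by 2.93 ± 0.84 (adjusted p = 0.026). With age, 26.9% of all tested genes fell in the jejunum and 30.1% in the ileum. Of the 7 tested sialidases, fucosidases and sialate esterases or acetylases, 6 fell in both regions. Among them the lysosomal fucosidase Fuca2 fell with a log2 fold change of -3.29 ± 0.26 and -4.06 ± 0.27 (adjusted p = 3.00e-08 and 4.44e-09) and the lysosomal sialidase Neu1 with one of -4.34 ± 0.38 and -2.51 ± 0.35 (adjusted p = 9.87e-08 and 1.63e-05). Neu1 was also higher in the P36 ileum than in the P36 jejunum (-1.96 ± 0.34, adjusted p = 8.84e-04).

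Between regions, 19 of the 55 changed at P6 (6 higher in the jejunum, 13 in the ileum) and 20 at P36 (6 and 14), where 25.9% and 16.1% of all tested genes did, the P36 count being 11, 13 and 12 without P36 jejunum replicate 1, jejunum replicate 4 and ileum replicate 4. Muc2, the secreted goblet cell mucin, had a P6 mean of 193 ± 14.0 CPM in jejunal and 728 ± 111 CPM in ileal libraries (-1.91 ± 0.29, adjusted p = 1.59e-04). A4gnt, which ends mucin chains with N-acetylglucosamine, was higher in the ileum at P6 (-1.91 ± 0.43, adjusted p = 0.00388) and at P36 (-1.47 ± 0.41, adjusted p = 0.0233). The sialidase Neu3 was higher in the jejunum at both ages (1.90 ± 0.41 and 2.55 ± 0.42, adjusted p = 0.00284 and 6.13e-04). Also higher in the jejunum were the transporter Slc35c2 at P36 (1.96 ± 0.38, adjusted p = 0.00212), and Pgm3, of UDP-N-acetylglucosamine synthesis, and the sulphotransferase Gal3st2 at P6 (1.93 ± 0.14 and 2.29 ± 0.30, adjusted p = 9.09e-08 and 4.26e-05). Muc4, a membrane mucin, rose with age in the jejunum by 4.42 ± 0.34 (adjusted p = 2.16e-08). B3galnt1, the globoside synthase, went from 194 counts to 8 in the jejunum (adjusted p = 3.91e-04) and from 80 to 1 in the ileum (adjusted p = 6.27e-04). C1galt1, the core 1 synthase that makes the substrate of St3gal1 and of core 2 branching, had a P6 mean of 31.9 ± 3.50 CPM in jejunal and 67.9 ± 27.8 CPM in ileal libraries (-1.09 ± 0.22, adjusted p = 0.00176) and did not change past the threshold with age.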

How the data were processed

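Epithelial mRNA libraries were made by the study with a stranded Kapa kit, and per the labels the reads were trimmed with Trimmomatic 0.38, aligned to mm10 with STAR 2.5.3 and counted with featureCounts of Subread 1.6.3. The deposited values were raw read counts per gene, 1 table per library, with no normalization by the authors. Library totals were 12159237 to 25947276 counts, which leaves genes under about 1 CPM imprecise. The counts of all 16 libraries were fitted in edgeR 4.0.16 (R 4.3.3, limma 3.58.1) with trimmed-mean scaling, the default filter on low counts, 1 coefficient per group and the quasi-likelihood F-test. The Benjamini-Hochberg adjustment ran over 13429 genes. SE, the standard error, was taken as the absolute log2 fold change divided by the root of F. The fit was tested on simulated data. Nothing in the labels says that libraries of a group are technical repeats, and replicates differed far beyond sampling noise (chi-square per gene of 13.2 to 285).

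Members with a value in every library were chosen by a rule on the size of their changes and their level, and the members and lists were chosen with earlier results of these data known. Regional log2 fold changes are jejunum over ileum, changes with age P36 over P6, and the interaction term is the regional value at P6 minus that at P36. Libraries with the same number within an age come from the same mouse per the labels. The deviations from the group means of the regions of 1 mouse correlated across genes with r of 0.155 to 0.413 at P6 and 0.300 to 0.425 at P36, and a fit with the mouse as a block was an alternative for regional results. The other alternatives, 27 settings in all with the block, were each library left out in turn (16 fits), DESeq2 1.42.0, other scalings and filters, sex as covariate, a robust prior, only the 8 libraries compared, and, chosen after seeing the data, the label prefix as covariate and P6 ileum replicates 2 and 4 left out.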

Additional observations from a re-analysis of the deposited data

Results flagged for a closer look

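In 9 of 108 groups of 4 libraries, the highest or lowest library lay far from the other 3 by Dixon's criterion, which chance alone marks in about 1 of 20 groups. St3gal4 in P36 replicate 1 was at 2185 CPM in the jejunum, where the other libraries reached 985 to 1073 CPM, and at 2406 CPM in the ileum, where they reached 633 to 786 CPM, and both libraries came from the same mouse. In the P36 ileum this mouse was also the highest for B3gnt3, at 203 CPM against 77.5 to 97.0 CPM. In the P6 ileum, replicate 4 was the highest for Fut8, at 23.7 CPM against 8.35 to 10.6 CPM, and for St3gal6, at 112.5 CPM against 31.0 to 40.7 CPM, and replicate 2 was the highest for St6galnac6, at 6.46 CPM against 0.592 to 1.03 CPM. Fut8 was also high in P6 jejunum replicate 2, at 4.42 CPM against 3.23 to 3.40 CPM. Galnt10 was low in P36 ileum replicate 2, at 119.4 CPM against 139 to 141 CPM, and Galnt3 in P36 jejunum replicate 4, at 32.6 CPM against 34.0 to 34.2 CPM.

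The regional log2 fold change at P6 minus that at P36 passed the interaction test for 13 members. The P6 value was the more ileal one for B3gnt6 (-4.48), B4galt1 (-3.67), St3gal6 (-2.30), Fut8 (-2.13), Gcnt3 (-1.79), Fut4 (-1.15), Galnt3 (-0.86) and Fut11 (-0.73). The value of B3gnt6 depends on the prior count, since its P6 jejunum had 0 counts. The P6 value was the more jejunal one for St3gal5 (3.30), St3gal3 (2.56), B4galt4 (2.10), Galnt10 (1.67) and Galnt6 (1.38).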

How the results depend on the processing

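No call of a named member turned its direction under any setting that was run. The counts of members changed, 27 between regions at P6, 12 at P36, 35 with age in the jejunum, 34 in the ileum and 13 for the interaction term, ran from 22 to 30, 12 to 15, 34 to 40, 33 to 40 and 12 to 18 under the 11 settings that keep the design or drop the libraries in doubt. Leaving out 1 library, they ran from 20 to 32, 5 to 15, 31 to 35, 34 to 37 and 9 to 15, and those past the fold minimum from 6 to 12, 1 to 4, 18 to 21, 20 to 22 and 5 to 8. The counts of pathway genes ran from 13 to 23, 11 to 26, 32 to 36, 35 to 42 and 6 to 11 in the same order. Past the fold minimum, 4 members differed at P6 with only the 8 libraries compared (9 in the fit of all libraries), and 4 for the interaction term without P6 ileum replicates 2 and 4 (7 with them). The log2 ratio of fucosyl to sialyl level depended on how a family was summarized. As a mean log2 difference it was -1.21 (jejunum) and -0.64 (ileum) at P6 and 1.54 and 1.46 at P36, where a sum follows the highest gene. The P36 values were -1.01 in the jejunum and -0.048 in the ileum without the highest member of each family, and the jejunal one -2.77 as a sum of CPM. Leaving out 1 library, the ratio ran from -7.20 to -6.93, -5.29 to -4.99, -3.73 to -3.45 and -3.16 to -2.58 in these 4 groups. With the mouse as a replicate block, 28 members differed at P6, 15 at P36 and 13 in the interaction term. The regional results whose call it changed are given with their values in the text, and it changed no other call. The other settings ended the P6 calls of St6galnac1 (library totals, sex, only the 8 libraries) and St8sia4 (no filter, sex, prefix), the P36 calls of B3gnt7 (only the 8 libraries) and St6galnac4 (sex, only the 8 libraries) and the interaction calls of Fut11 (no filter) and, without P6 ileum replicates 2 and 4, of B3gnt6 and St3gal6. Members with a value in every library also gained calls. DESeq2 added St6gal1 (-1.54, adjusted p = 0.0329) and St3gal6 between regions at P36 and the interaction terms of St3gal2, St8sia4, B4galnt2 and B4galt6 (adjusted p = 0.0359, 0.0473, 0.0464 and 0.0499). Library totals added B4galnt4 (-0.99, adjusted p = 0.0132) and St3gal6 at P6 and the interaction term of B4galnt2. The prefix added B4galnt1 and B4galnt4 at P6, St3gal6 at P36, Galnt6 with age in the ileum and the interaction terms of B4galnt2 and B4galt6, while sex and the minimum of 1 CPM each added St3gal6 at P36. Leaving out P6 ileum replicates 2 and 4 added B4galnt4 at P6, St8sia4 with age in the ileum and the interaction terms of B4galnt4 and B4galt6, and the fits of 8 libraries added those given in the text. The cause was not tested. Counts of a few reads limit B3gnt5, B3gnt6, St3gal2, St8sia4, the P6 values of Fut1 and St6galnac4 and the P36 values of St3gal5 and St6galnac1.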
